A study of Mus musculus with 8 samples.

Results

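The genes described here are 10 genes of the ATF4 pathway, taken by name with every probe set the array holds for them: Atf4, Ddit3, Trib3, Chac1, Ddit4, Asns, Psat1, Phgdh, Mthfd2 and Vldlr. They are 10 of the 18193 genes that have a probe set of their own, and all 10 passed the filter on low values. They were read by 25 probe sets named for 1 of these genes alone, and Phgdh by 2 more that are shared with a pseudogene-type gene. The samples were fibroblasts of E14.5 mouse embryos of the C57BL6/J strain, either wild type for Hif-p4h-1 (Hif-p4h-1+/+) or lacking it (Hif-p4h-1-/-, called knockout), kept in normoxia or in hypoxia. Hif-p4h-1 is the prolyl hydroxylase encoded by Egln2, and the deletion is carried by the mouse line and so by every cell of the knockout cultures. Each of the 4 groups had 2 arrays, 1 in a first set and 1 in a second set, which gave 8 arrays in all. The sources used here do not give the oxygen level, the length of exposure or the number of embryos behind each array.

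ATF4 is a transcription factor whose mRNA is translated more efficiently when the initiation factor eIF2 is phosphorylated, as it is under amino acid shortage, endoplasmic reticulum stress or severe lack of oxygen. ATF4 pairs with C/EBP proteins on composite DNA elements and switches on genes of amino acid synthesis and transport, together with the stress factor Ddit3 (CHOP) and the feedback regulator Trib3. Because much of this control acts on translation, the amount of Atf4 mRNA need not follow the amount of ATF4 protein, and an array reads only the mRNA. The other oxygen pathway, in which prolyl hydroxylases mark hypoxia-inducible factor (HIF) for degradation, acts on some of the same genes, among them Ddit4 and Vldlr.

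The promoter windows of the genes are shown as a description, and a link between their elements and the hypoxia responses was not tested. The windows run from 250 bases before to 50 after an annotated start, in RefSeq on GRCm38.p6, and all 10 genes matched, with 12 windows because Psat1 and Vldlr each had 2 starts. Both strands were searched for the composite element TGATGNAA, for the cores of the hypoxia response element ACGTG and GCGTG, and for TGACG, the core of the cyclic AMP response element. TGACG and ACGTG can overlap by 3 bases, which occurred in no window of these genes. The composite element was found in 4 of the 12 windows, those of Asns, Chac1, Trib3 and the second start of Vldlr. It was found in 3.97% of the 32851 promoters of the same length. ACGTG was found in 4 of the 12 windows (4 members) and in 19.62% of promoters. GCGTG was in 9 windows (8 members) and in 32.39% of promoters, and TGACG in 4 windows (4 members) and in 20.81%. A match is a description of the letters and shows no binding.

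4 of these windows are shown in part, 5′ to 3′ on the strand of the gene. For Asns (chr6:7693210-7693272, minus strand) the capitals mark the composite element 23 to 16 bases before the start. For Chac1 (chr2:119351009-119351096, plus strand) and the second start of Vldlr (chr19:27216780-27216867, plus strand) they mark the same element read from the opposite strand. For Ddit4 (chr10:59951861-59951977, minus strand) they mark the 2 cores of the hypoxia response element, and its window holds no composite element.
Asns: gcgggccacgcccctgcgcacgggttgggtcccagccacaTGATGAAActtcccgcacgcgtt
Chac1: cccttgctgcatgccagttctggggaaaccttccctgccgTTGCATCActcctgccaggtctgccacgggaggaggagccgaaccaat
Vldlr, second start: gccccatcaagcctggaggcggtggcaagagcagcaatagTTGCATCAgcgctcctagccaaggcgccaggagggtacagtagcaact
Ddit4: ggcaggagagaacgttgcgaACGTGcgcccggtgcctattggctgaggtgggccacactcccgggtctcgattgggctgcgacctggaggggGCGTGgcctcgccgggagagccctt

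**Figure D1:**
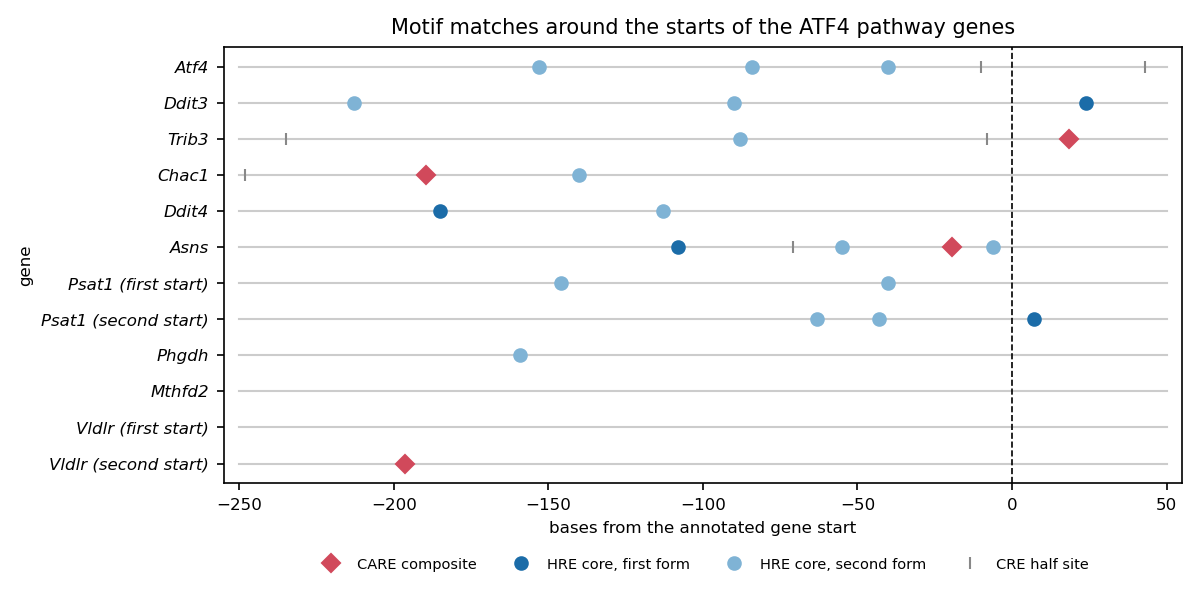
Positions of the searched motifs in the 12 promoter windows of the 10 genes, in bases from the annotated start (0 is the start, negative is before it), with 1 row per start and 1 marker per match, the first and second form of the hypoxia response element core being ACGTG and GCGTG. The composite element appears in 4 rows, those of Asns, Chac1, Trib3 and the second start of Vldlr.

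Before the members are described, the samples themselves were checked. Fibroblast markers were above the filter for 12 of 12 genes, with a mean log2 value between 11.80 and 12.17 per array. That mean was lower in knockout at each set and oxygen level. In the first set it was 11.86 and 11.83 for knockout against 12.17 and 12.04 for wild type, normoxia first. In the second set it was 11.87 and 11.80 against 12.02 and 11.95. Egln2, the deleted gene, has 1 probe set, which in normoxia read 8.84 and 9.07 on the wild-type arrays against 8.0 and 8.34 on the knockout arrays, a difference of -0.79 (limma adjusted p = 0.0489). In hypoxia the wild-type arrays read 8.95 and 9.13 against 8.66 and 8.85 for knockout (-0.29, adjusted p = 0.725). Where its probes lie relative to the deleted part is unknown here, and the difference in hypoxia was not called. Both wild-type arrays of the first set stood apart in markers of other cells. Skeletal muscle markers (7 of 8 above the filter) averaged 8.42 and 8.27 there against 5.60 to 6.21 on the other 6 arrays. Myod1, Myog, Actc1, Myh3, Tnnt1 and Mylpf were each higher there than on every other array. Des was not (7.07 and 7.28 there, 6.61 to 7.29 elsewhere), and Acta1 was lower there (9.65 and 9.21) than on the second-set arrays (10.9 to 11.54). Macrophage and leukocyte markers (11 of 12 above the filter) averaged 7.73 and 7.23 there against 5.26 to 6.20 elsewhere. These are bulk samples, in which fewer cells of a type and less RNA per cell cannot be told apart.

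Hypoxia moved the 10 genes in both directions. In wild type Vldlr and Ddit4 rose, Ddit3 and Chac1 fell, and the other 6 did not pass the test. In knockout Vldlr and Ddit4 rose and Ddit3 and Trib3 fell. A gene is called here when its limma p-value, adjusted by Benjamini-Hochberg over all 13647 genes tested, is under 0.05. By that rule 16.4% of all genes were called in wild type (7.54% higher, 8.85% lower) and 10.1% in knockout (4.98% higher, 5.13% lower), against 4 of the 10 members in each genotype. Over both genotypes 2 members rose and 4 fell (Ddit3, Chac1, Trib3 and Mthfd2), where 28.7% of all genes were called (13.6% higher, 15.2% lower). The median log2 change of the members was -0.09 in wild type and -0.10 in knockout, against -0.015 and 0.02 over all genes. In 3 of the 10 members, Ddit3, Ddit4 and Vldlr, the 4 hypoxic arrays did not overlap the 4 normoxic ones, a pattern found in 15.3% of all genes. All of these values come from a fit that holds the set as a term. Without it 1 member, Vldlr, was called in wild type, 0 in knockout, and 2, Vldlr and Ddit3, over both genotypes.

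**Figure D2:**
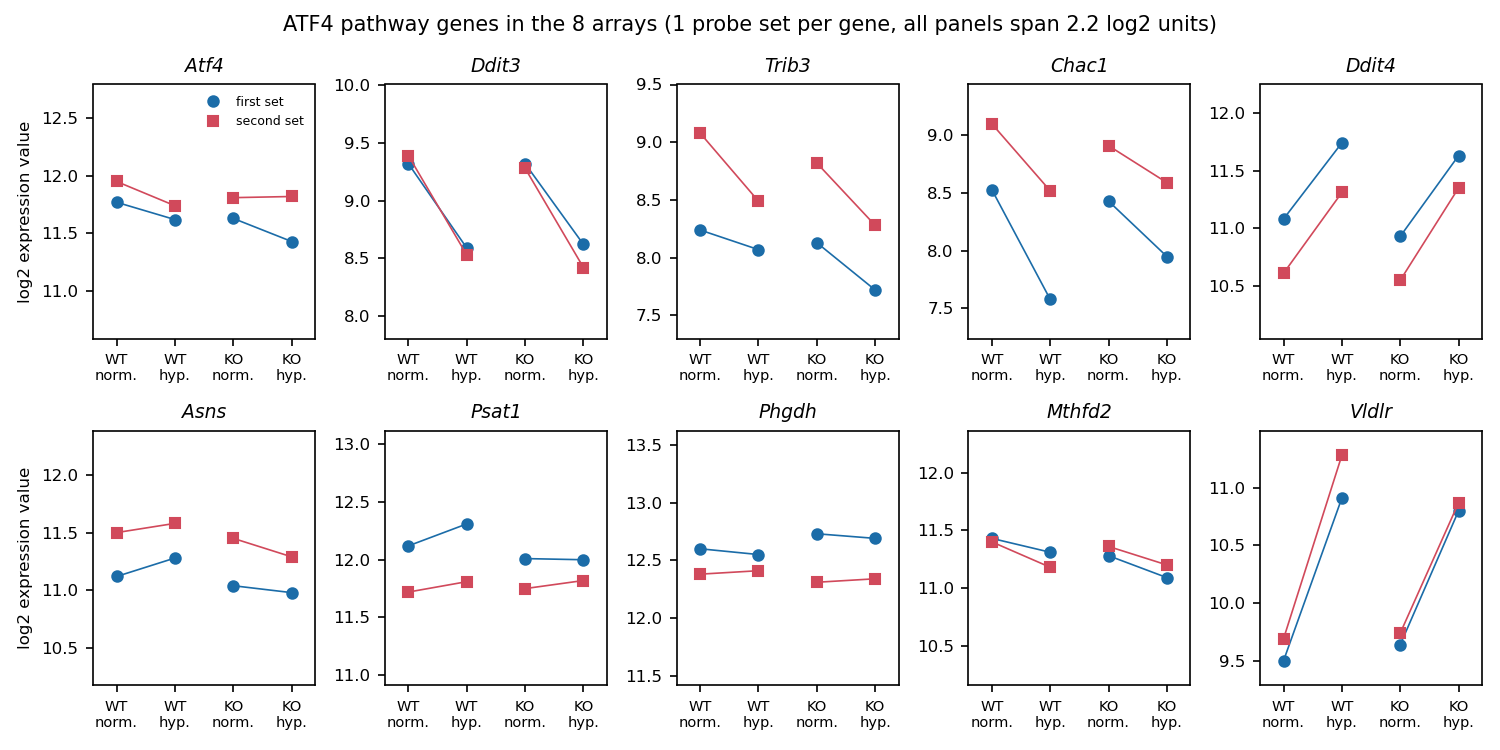
Log2 expression of the 10 genes on each of the 8 arrays, with 1 panel per gene, the 4 groups along the x axis and both sets marked. Each point is 1 array, and lines join the normoxic and hypoxic arrays of 1 set and genotype. Vldlr and Ddit4 sit higher and Ddit3 lower on all 4 hypoxic arrays, and the panels of Asns, Psat1, Phgdh and Atf4 overlap between oxygen levels.

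Among the transcription factors, Atf4 itself did not pass the test and Ddit3 fell. The probe set that represents Atf4 (1448135_at) read 11.77 and 11.95 in wild-type normoxia and 11.62 and 11.74 in wild-type hypoxia, the first value of each pair being the first set. In knockout Atf4 read 11.63 and 11.81 in normoxia and 11.43 and 11.82 in hypoxia. The ranges of the 2 oxygen levels overlap, and the lowest of the 8 values is the first-set knockout array in hypoxia. The change over both genotypes was -0.14 ± 0.05 (standard error of the fit; adjusted p = 0.0954), and it passed when the second-set knockout array in hypoxia was left out (-0.20, adjusted p = 0.0413). A further probe set of Atf4 changed by 0.11 in wild type and -0.21 in knockout, neither called, and the third lay below the filter.

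Ddit3 encodes CHOP, a factor of the C/EBP family that is induced by ATF4 under prolonged stress and is linked to cell death. Its main probe set (1417516_at) read 9.32 and 9.39 in wild-type normoxia, 9.32 and 9.28 in knockout normoxia, 8.59 and 8.53 in wild-type hypoxia and 8.62 and 8.42 in knockout hypoxia. The 4 hypoxic values all lie below the 4 normoxic ones, and the genotypes overlap at both oxygen levels. In wild type Ddit3 fell by 0.80 ± 0.09 (adjusted p = 0.00232). The knockout arrays gave nearly the same fall, -0.78 ± 0.09 (adjusted p = 0.00404), and the ratio of hypoxia to normoxia was 0.58 in both. Among the 13647 genes this was the 110th lowest change over both genotypes. The knockout call was lost without the second-set knockout array in normoxia (adjusted p = 0.0566) or in hypoxia (0.0525). A dimmer Ddit3 probe set also fell, by 1.25 in wild type and by 1.35 in knockout.

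Trib3 and Chac1 lie downstream of ATF4 and CHOP, and their main probe sets read lower in hypoxia than in normoxia in each set and genotype. Trib3, a pseudokinase that holds back ATF4 and CHOP activity, read 8.24 and 9.08 in wild-type normoxia and 8.07 and 8.49 in wild-type hypoxia on its main probe set (1456225_x_at). In knockout Trib3 read 8.13 and 8.82 in normoxia and 7.72 and 8.28 in hypoxia. The groups overlap because the second set read higher than the first at every group, and within a set the hypoxic array was the lower one. The fall over both genotypes was called (-0.43 ± 0.08, adjusted p = 0.00652). In wild type alone the change was -0.38 ± 0.12 and was not called (adjusted p = 0.0613).

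In knockout alone Trib3 fell by 0.48 ± 0.12 (adjusted p = 0.0395), a call that was lost when any 1 of the 4 knockout arrays was left out (adjusted p = 0.121 to 0.235). In the fit of all probe sets neither Trib3 probe set was called within a genotype (main probe set adjusted p = 0.0747 in wild type and 0.05 in knockout), and the other one changed by -0.17 and -0.18. Over both genotypes that fit called the main probe set (adjusted p = 0.00922) and not the other (-0.17, adjusted p = 0.216). Chac1 encodes a cyclotransferase that breaks down glutathione, and its single probe set (1451382_at) read 8.53 and 9.10 in wild-type normoxia and 7.58 and 8.52 in wild-type hypoxia. In knockout Chac1 read 8.43 and 8.91 in normoxia and 7.95 and 8.59 in hypoxia. The lowest value is the first-set wild-type array in hypoxia, and as for Trib3 the second set read higher throughout.

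Chac1 fell by 0.77 ± 0.12 in wild type (adjusted p = 0.00658) and was not called in knockout (-0.40 ± 0.12, adjusted p = 0.0745). The difference between these 2 responses, tested as the interaction, was 0.37 with a 95% interval from -0.03 to 0.76 (adjusted p = 1), so a different response was not shown. The wild-type call of Chac1 was lost without the first-set wild-type array in normoxia (adjusted p = 0.0634) or in hypoxia (-0.58, adjusted p = 0.0514), the arrays with raised muscle and macrophage markers. Without the first-set or the second-set wild-type array in hypoxia, the knockout change of Chac1, unchanged at -0.40, was called (adjusted p = 0.0416 and 0.0443). The part of those markers in the result was not tested.

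Ddit4 and Vldlr rose in both genotypes. Ddit4 encodes REDD1, an inhibitor of mTORC1 signalling that is a target of both ATF4 and HIF, and its window holds both cores of the hypoxia response element printed above. Both cores are also in windows of Ddit3, which fell, and of Asns and Psat1, which were not called. Neither core is in a window of Vldlr, and a link between the cores and the changes was not tested. The single probe set of Ddit4 (1428306_at) read 11.08 and 10.61 in wild-type normoxia and 11.74 and 11.31 in wild-type hypoxia. In knockout Ddit4 read 10.93 and 10.55 in normoxia and 11.63 and 11.35 in hypoxia. All 4 hypoxic values are above all 4 normoxic ones, and here the first set read higher than the second. The rise of Ddit4 was 0.68 ± 0.07 for wild-type cells (1.60-fold, adjusted p = 0.00146), and for knockout cells it was 0.75 ± 0.07 (1.68-fold, adjusted p = 0.00159). Both calls held when each of the 8 arrays was left out in turn.

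Vldlr encodes the very low density lipoprotein receptor, a member of the LDL receptor family that takes up triglyceride-rich particles and also binds reelin. On its main probe set (1434465_x_at) it read 9.50 and 9.69 in wild-type normoxia, 9.64 and 9.74 in knockout normoxia, 10.91 and 11.28 in wild-type hypoxia and 10.80 and 10.87 in knockout hypoxia. The highest normoxic value, 9.74, lies well below the lowest hypoxic value, 10.80, and in hypoxia both knockout values lie below both wild-type values. The rise of Vldlr was 1.5 ± 0.09 for wild-type cells (2.83-fold, adjusted p = 9.33e-05), and for knockout cells it was 1.15 ± 0.09 (2.21-fold, adjusted p = 6.22e-04). It was the 47th highest change of 13647 genes over both genotypes, and its calls in both genotypes held without each of the 8 arrays in turn.

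**Figure D3:**
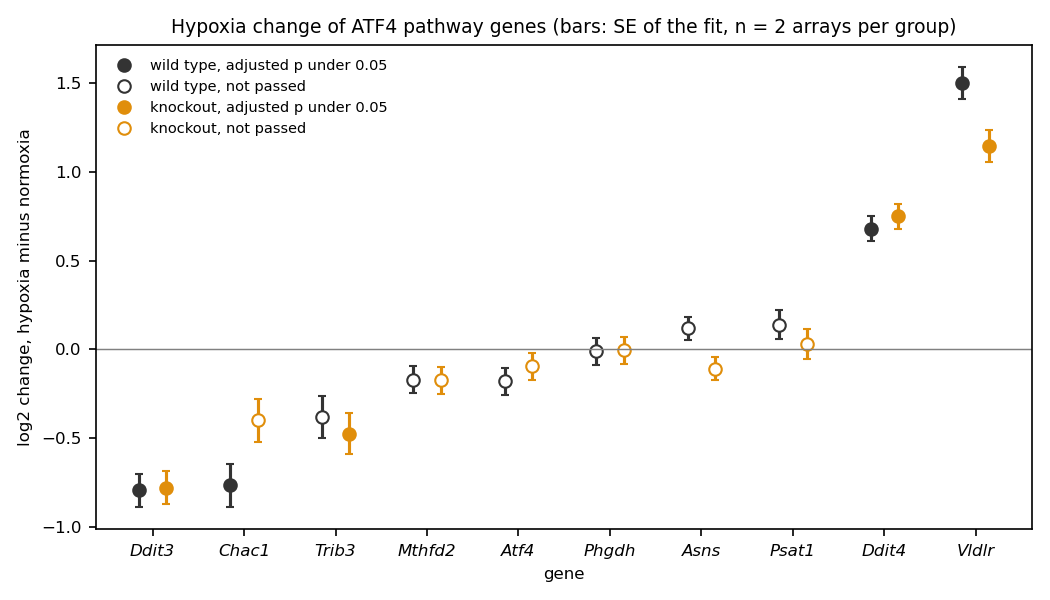
Log2 change of each of the 10 genes from normoxia to hypoxia in wild type and in knockout, with bars for the standard error of the limma fit and filled points for an adjusted p under 0.05. Vldlr and Ddit4 lie above 0 and Ddit3 below it with filled points in both genotypes, Chac1 is filled in wild type and Trib3 in knockout, and the other genes are open.

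The 4 enzymes of amino acid and folate metabolism moved little. Asns, which makes asparagine from aspartate and glutamine, carries the composite element printed above just before its start. Its main probe set (1433966_x_at) read 11.12 and 11.50 in wild-type normoxia and 11.28 and 11.58 in wild-type hypoxia. In knockout Asns read 11.04 and 11.45 in normoxia and 10.98 and 11.29 in hypoxia. The hypoxic array was the higher one in both wild-type pairs and the lower one in both knockout pairs, but the oxygen levels overlap. The changes of 0.12 ± 0.06 in wild type (adjusted p = 0.251) and -0.11 ± 0.06 in knockout (adjusted p = 0.327) were not called. The other probe set of Asns went down in both genotypes (-0.14 and -0.17, not called), so the probe sets disagree in direction in wild type.

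Phgdh and Psat1 catalyse the opening steps of serine synthesis from a glycolytic intermediate. Phgdh (1454714_x_at) read 12.60 and 12.38 in wild-type normoxia and 12.55 and 12.41 in wild-type hypoxia. In knockout Phgdh read 12.73 and 12.31 in normoxia and 12.69 and 12.34 in hypoxia. The hypoxic and normoxic arrays of a set differed by at most 0.05, and the 95% interval of the change over both genotypes ran from -0.13 to 0.12. On all 6 Phgdh probe sets, the shared ones included, no hypoxia change was called in wild type or in knockout.

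Psat1 (1454607_s_at) read 12.12 and 11.72 in wild-type normoxia and 12.31 and 11.81 in wild-type hypoxia. In knockout Psat1 read 12.01 and 11.75 in normoxia and 12.00 and 11.82 in hypoxia. The first-set wild-type array in hypoxia is the highest of the 8, and the oxygen levels overlap. The change over both genotypes was 0.09 ± 0.06 with a 95% interval from -0.05 to 0.22 (adjusted p = 0.332). The other Psat1 probe set went the other way, with -0.08 over both genotypes (95% interval -0.21 to 0.06, not called).

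Mthfd2, a mitochondrial enzyme that passes folate-bound one-carbon units from serine towards formate, was the only 1 of the 4 enzymes with a call. Its main probe set (1419254_at) read 11.43 and 11.40 in wild-type normoxia and 11.31 and 11.18 in wild-type hypoxia. In knockout Mthfd2 read 11.28 and 11.36 in normoxia and 11.09 and 11.20 in hypoxia. Each hypoxic array is below its normoxic partner, and the groups touch at 11.28 in normoxia and 11.31 in hypoxia. The fall of 0.17 ± 0.05 over both genotypes was small and just passed (adjusted p = 0.0447), and it was kept in 1 of the 8 fits that leave out an array. Neither genotype alone gave a call (-0.17 and -0.18, adjusted p = 0.172 and 0.190). The dimmer Mthfd2 probe set (1419253_at) also read lower in hypoxia over both genotypes (-0.20 ± 0.06). In the limma fit of all probe sets it was called there (adjusted p = 0.0378), as was the main one (0.0485). It was called in neither genotype alone (-0.28 in wild type, adjusted p = 0.0608, and -0.12 in knockout, adjusted p = 0.401).

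With every probe set tested on its own, the 24 above the filter that belong to 1 member were counted as well. In wild type 7 rose and 3 fell, and in knockout 7 rose and 2 fell, where 14.1% and 8.80% of all 28652 probe sets were called. All 6 Vldlr probe sets rose, by 1.5 to 1.87 in wild type and by 1.11 to 1.52 in knockout. The 1.52 is that of the dimmest (1451156_s_at), whose normoxic values of 3.88, 4.65, 4.12 and 4.2 lie around the filter floor of 4.17, so its changes are less certain. The other 5 rose by 1.11 to 1.38 in knockout. The seventh that rose is that of Ddit4. Over both genotypes 7 rose and 6 fell, against 27.0% of all probe sets called. The main probe sets of Asns, Trib3, Phgdh and Vldlr carry the suffix x, which in this array design marks probes that can also bind other transcripts. That of Psat1 carries the suffix s. Binding of x and s probe sets to other transcripts could not be checked here, because no probe sequences were at hand.

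**Figure D4:**
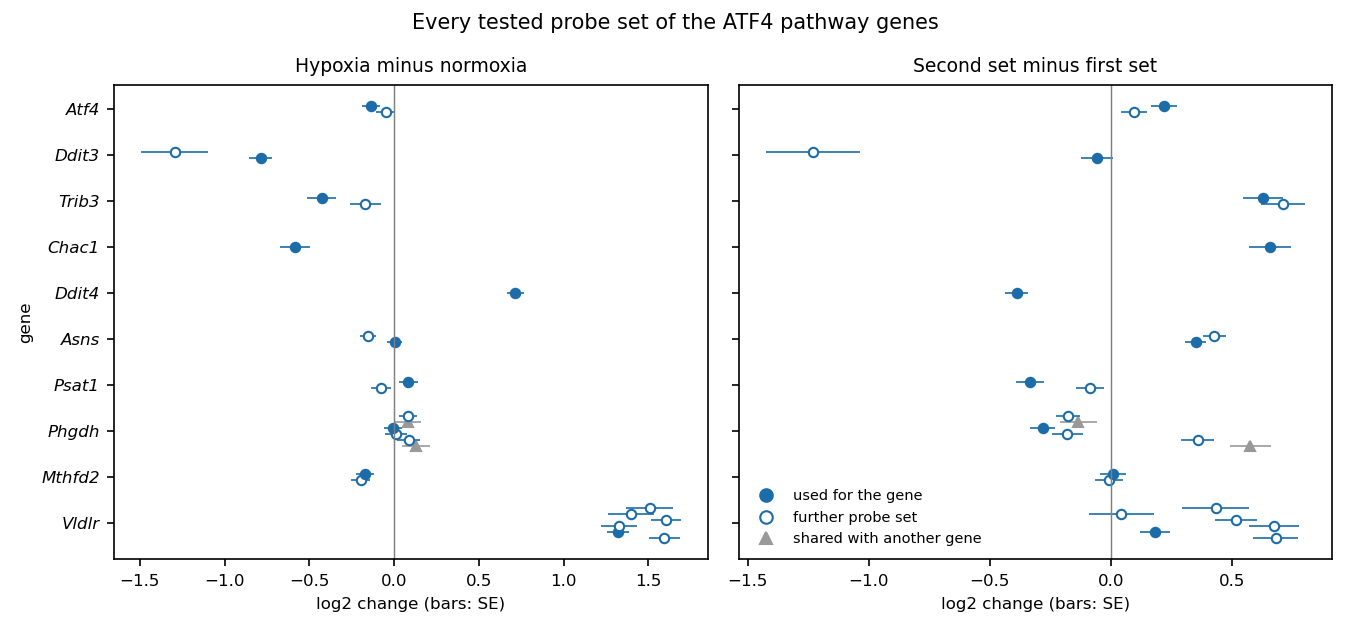
Log2 change from normoxia to hypoxia over both genotypes (left) and from the first to the second set (right) for each tested probe set of the 10 genes, with bars for the standard error and grey triangles for the 2 Phgdh probe sets shared with another gene. On the left the 6 Vldlr probe sets and the Ddit4 probe set lie above 0 and both Ddit3 probe sets below it, while those of Asns, Psat1 and Phgdh lie near 0; on the right Phgdh has probe sets on both sides of 0.

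The ratio of 3′ to 5′ signal of control transcripts, a measure of RNA integrity and labelling, moved with oxygen and differed between the sets. On the log2 scale it was higher in hypoxia in 4 of 4 pairs for Actb, by 0.10 to 0.17, and in 4 of 4 pairs for Gapdh, by 0.04 to 0.33. For Actb it was 0.53 to 0.73 on the first-set arrays against 0.31 to 0.47 on the second-set arrays. For Gapdh it was also higher in the first set, except in knockout hypoxia (0.37 against 0.44). The part of these shifts in the hypoxia changes and set differences of the members was not tested. Macrophage markers changed by a median of -0.28 and fibroblast markers by -0.04 over both genotypes.

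Loss of Hif-p4h-1 gave no call in any of the 10 genes. This held in normoxia, in hypoxia and over both oxygen levels by limma, where 0.0366%, 0.0293% and 0.256% of all genes were called. At an unadjusted p under 0.05 there were 0 members in normoxia (914 genes in all), 3 in hypoxia (753 genes) and 2 over both (1396 genes). In normoxia 8 of the 10 differences, knockout minus wild type, were negative, and the 95% intervals bound them within -0.45 and 0.30. Their median was -0.08, and the median over all genes was also negative (-0.02). Of the 24 member probe sets 0 were called by limma in these contrasts, where 0.00698%, 0% and 0.0524% of all probe sets were. A p that misses the threshold does not show that the genotypes were alike.

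The 3 members with an unadjusted p under 0.05 in hypoxia were Asns, Vldlr and Trib3, and all were lower in knockout. Asns differed by -0.30 between the first-set arrays and by -0.29 between the second-set arrays, and in the fit by -0.295 ± 0.065 with a 95% interval from -0.44 to -0.15 (unadjusted p = 0.00171, adjusted p = 0.506). Its other probe set differed by -0.12 (adjusted p = 0.978). Vldlr differed by -0.26 ± 0.09 (adjusted p = 0.780) and Trib3 by -0.28 ± 0.12 (adjusted p = 0.881). For Vldlr all 6 probe sets read lower in knockout under hypoxia, with differences from -0.09 to -0.36, and none was called. The muscle markers given above were also higher on the first-set wild-type arrays than on the knockout arrays of that set. Macrophage markers were higher in wild type in both sets, at 7.73 and 7.23 against 5.79 and 5.89 for knockout in the first and at 6.20 and 5.95 against 5.36 and 5.26 for the second, and the part of both marker lists in these differences was not tested.

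The interaction, the hypoxia change in knockout minus that in wild type, was called for 0 members and for 0% of all genes by limma. At an unadjusted p under 0.05 there were 2 members and 329 genes in all. Those 2 members were Vldlr (-0.36 ± 0.13, 95% interval -0.64 to -0.07, adjusted p = 1) and Asns (-0.23 ± 0.09, 95% interval -0.44 to -0.02, adjusted p = 1). The other Asns probe set gave an interaction of -0.03 ± 0.10 (unadjusted p = 0.805), so the value of Asns rests on 1 of its 2 probe sets. The further probe set of Atf4 gave -0.32 ± 0.11 (unadjusted p = 0.0202), against 0.09 ± 0.11 on the main one, and neither was called. For Vldlr the change was smaller in knockout on 5 of 6 probe sets, with interactions from -0.24 to -0.54, and the dimmest probe set stood at 0.02. The 15 HIF targets listed below had a median interaction of -0.385, against 0.025 over all genes, and 0 of them were called. Knockout minus wild type, the median of these targets was 0.345 in normoxia and -0.065 in hypoxia. Vldlr differed from that, with 0.095 in normoxia and -0.26 in hypoxia. For Ddit3 and Ddit4 the interaction was 0.02 ± 0.13 and 0.07 ± 0.10.

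The 2 sets of arrays differed in 8 of the 10 members, 5 higher and 3 lower in the second set, where 46.1% of all genes were called (25.4% higher, 20.7% lower). The second set was higher for Chac1 (0.66 ± 0.09), Trib3 (0.63 ± 0.08), Asns (0.35 ± 0.05), Atf4 (0.22 ± 0.05) and Vldlr (0.18 ± 0.06), and lower for Ddit4 (-0.39 ± 0.05), Psat1 (-0.34 ± 0.06) and Phgdh (-0.28 ± 0.05). Ddit3 (-0.06 ± 0.07) and Mthfd2 (0.01 ± 0.05) were not called. For Chac1 and Trib3 the step between sets was larger than their hypoxia change over both genotypes (-0.58 and -0.43), whereas for Vldlr it was far smaller (1.32). Of the 24 member probe sets 17 were called between sets, where 42.5% of all probe sets were, and probe sets of a gene did not always share this step. For Phgdh 1 probe set of its own stood at 0.36 and the other 3 between -0.28 and -0.18, and the dimmer Ddit3 probe set stood at -1.23. The Vldlr call between sets was kept in 2 of the 8 fits that leave out an array. The labels mark the second arrays and say no more about what separates the sets. In the values, the 3′ to 5′ ratio of control transcripts given above also differed between them. It is also unknown here whether RMA was run on all 8 arrays at once or on each set alone, so a printed set difference can hold a difference in processing as well as one between samples.

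After subtracting each gene's own mean over the 8 arrays, the profiles of the members were set against each other and against all genes tested. The distance is the mean absolute difference in log2 over 8 arrays. The nearest pair of members was Atf4 and Mthfd2 (0.105), followed by Psat1 and Phgdh (0.109) and Atf4 and Asns (0.116), and Trib3 and Chac1 stood at 0.185. The farthest pair was Ddit3 and Vldlr (1.06). Among all genes the 3 nearest to Vldlr were the nuclear receptor Rora (0.0913), the glycolytic enzyme Tpi1 (0.103) and the RNA demethylase Alkbh5 (0.123). Those nearest to Ddit4 were Mrps6 (0.0438), a mitochondrial ribosomal protein, Mcm3 (0.0494), a subunit of the replicative helicase, and Aimp2 (0.0694), a scaffold of the tRNA synthetase complex. Nearest to Asns were Dennd11 (0.0475), 1700086D15Rik (0.0488) and Zfp827 (0.0522). The nearest 1% of genes lay within 0.324 of Vldlr, 0.164 of Ddit4 and 0.0900 of Asns, so close profiles were common for Asns, whose own values span little. Atf4, at 0.116 from Asns, lay outside that nearest 1%. For pairs without Asns, Ddit4 or Vldlr no such share of all genes was taken, so their distances are a description only.

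The wider pathway was described through 12 lists, which were chosen with earlier results of these data known. Counts are over both genotypes, beside the 28.7% of all genes called and a median change of 0.007 over all genes. Of 9 transcription factors that partner with or stand beside ATF4, 4 rose, 1 fell and 4 did not pass. Cebpg, a dimer partner of ATF4, fell by 0.42 ± 0.06, while Cebpb rose by 0.25 ± 0.06, the oxidative stress factor Nfe2l2 by 0.33 ± 0.05 and Tfe3 by 0.39 ± 0.09. Of 9 genes for eIF2 kinases, phosphatases and their regulators, 2 rose, 1 fell and 6 did not pass. Eif2ak1, the heme-regulated kinase, rose by 0.81 ± 0.14, while Ppp1r15b, a subunit that directs the phosphatase to eIF2, fell by 0.22 ± 0.05.

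Among 17 further stress targets of ATF4, 5 rose, 3 fell and 9 did not pass (median -0.002). The largest of the named rises was that of Stc2, a secreted glycoprotein hormone, at 2.36 ± 0.17, followed by Ndrg1 (1.19 ± 0.12, also on the HIF target list) and the disulfide oxidase Ero1a (1.12 ± 0.05), all genes that also respond to HIF. Eif4ebp1, a repressor of cap-dependent translation, rose by 0.27 ± 0.05. Sesn2, an amino acid sensor that restrains mTORC1, fell by 0.30 ± 0.07, with -0.57 in wild type and -0.03 in knockout. Its interaction of 0.54 ± 0.14 was not called (adjusted p = 1).

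Of 12 enzymes of serine, glycine and one-carbon metabolism besides the members, 2 rose, 3 fell and 7 did not pass (median 0.05). Shmt2, the mitochondrial enzyme that splits serine ahead of Mthfd2, rose by 0.53 ± 0.05 and Mthfd1l, which acts after Mthfd2, by 0.48 ± 0.06. The cytosolic enzyme Mthfd1 fell by 0.46 ± 0.05. Shmt2 and Mthfd1l moved up where Mthfd2, which acts between them, read slightly lower. That fall of Mthfd2 was marginal (-0.17, limma adjusted p = 0.0447). It was called in neither genotype alone and was kept in 4 of 9 alternatives. Of 11 other enzymes of amino acid synthesis 2 rose, 4 fell and 5 did not pass, with falls of the aspartate aminotransferases Got1 (-0.42 ± 0.07) and Got2 (-0.34 ± 0.05).

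The next lists hold amino acid transporters, tRNA synthetases and chaperones, beside 13.6% of all genes called higher and 15.2% called lower. Of 17 transporters 1 rose (Slc38a2, a glutamine carrier, 0.35 ± 0.04), 4 fell and 12 did not pass, with falls of Slc3a2 (-0.34 ± 0.06) and the arginine and lysine carrier Slc7a1 (-0.30 ± 0.05). Of 19 cytosolic aminoacyl-tRNA synthetases, which charge tRNAs and are common ATF4 targets, 1 rose, 6 fell and 12 did not pass (median -0.10). Gars fell by 0.55 ± 0.05, Farsb by 0.53 ± 0.08 and Lars by 0.47 ± 0.06. Of 19 endoplasmic reticulum chaperones and related targets of the IRE1 and ATF6 branches, 2 rose, 10 fell and 7 did not pass (median -0.23). Dnajb11 fell by 0.82 ± 0.05, Manf by 0.64 ± 0.06, Pdia6 by 0.59 ± 0.05 and Calr by 0.55 ± 0.05.

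Around single members, 3 of 14 mTORC1 regulators beside Ddit4 rose, 2 fell (Sesn2 and Castor1) and 9 did not pass, with a rise of the inhibitory subunit Akt1s1 (0.58 ± 0.10). Of 12 genes of the LDL receptor family and the reelin pathway Lrp12 and Lrpap1 fell (-0.34 ± 0.07 and -0.21 ± 0.06) and the other 10 did not pass, beside the rise of Vldlr. Of 7 relatives of Trib3 and Chac1, 2 rose, 1 fell and 4 did not pass. Trib2 fell by 0.73 ± 0.10 and Chac2, the other glutathione cyclotransferase, rose by 0.52 ± 0.10. For comparison, 15 of 15 HIF targets rose (median 2.01), Bnip3 by 3.50 ± 0.06 and Pdk1 by 3.35 ± 0.07. No gene of the 12 lists was called for knockout against wild type other than Bnip3, which was 0.83 ± 0.08 higher in knockout in normoxia (adjusted p = 0.0273).

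**Figure D5:**
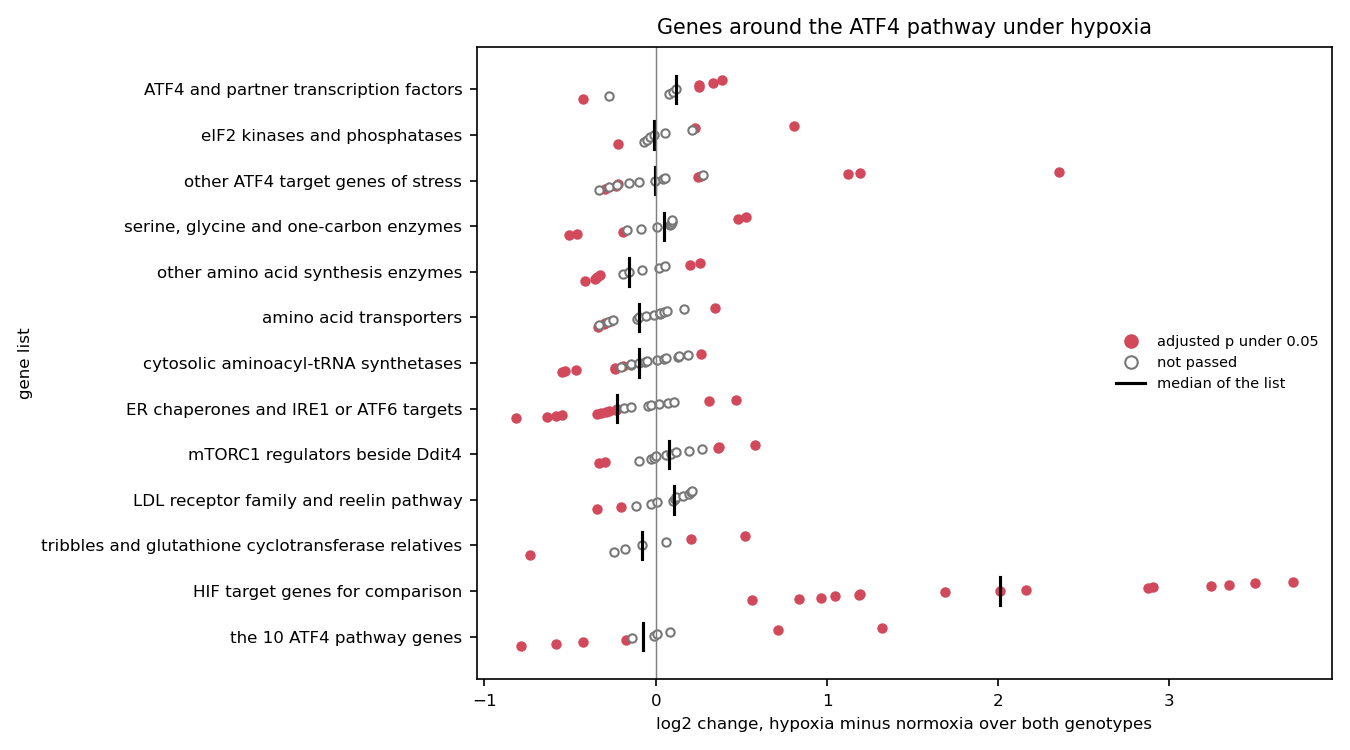
Log2 change from normoxia to hypoxia over both genotypes for the tested genes of each of the 12 lists and, in the bottom row, for the 10 members, with 1 point per gene, filled where the adjusted p is under 0.05, and a bar at the median. The 15 HIF targets all lie above 0 with a median of 2.01, while the medians of the other lists lie between -0.23 and 0.12.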

How the data were processed

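The submitters' processing notes name RMA, without a version, and the deposited table holds the authors' log2 values to 2 decimals, with array medians between 5.01 and 5.12. RMA equalizes array distributions, so a change common to all transcripts cannot be seen. Gene names came from the platform annotation (34945 probe sets with 1 symbol, 932 with several, 9160 unnamed), updated through RefSeq of GRCm38.p6 for 34741.

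For each gene the probe set with the highest mean was used, and genes under the 25th percentile of gene means (4.17) were left out. With limma 3.58.1 in R 4.3.3, the 4 group means plus a fixed set term were fitted to all 8 arrays, followed by eBayes with a trend (3 residual degrees of freedom, 5.22 added by moderation). A second fit took all 28652 probe sets above that floor, without controls. The labels mark the second arrays, and set differences correlated between groups at 0.71 to 0.85, so the set was kept as a block. The correlation was 0.85 between the wild-type groups and 0.83 between the knockout groups, against 0.71 to 0.77 across genotypes. The fit holds 1 set term for both genotypes. A set difference particular to a genotype is therefore not modelled, and p-values between genotypes may be too small. Tests are two-sided and ± is the standard error. The labels name no separate embryos or cultures, so the spread behind each p-value may be technical, and the number of arrays limits the precision.

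The members and the 12 lists were chosen with earlier results of these data known. From each list up to 4 genes with the smallest adjusted p over both genotypes were named, with any gene called between genotypes. Alternatives were other treatments of the set, filters, probe set rules, scalings and leaving out each array.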

Additional observations from a re-analysis of the deposited data

How the results depend on the processing

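No result changed direction in a called value under the alternatives run. The count of members called depended most on the replicate block. Without it, the count fell from 4 to 1 in wild type, from 4 to 0 in knockout and from 6 to 2 over both genotypes, and Vldlr in wild type (adjusted p = 0.0416), Vldlr over both (0.0110) and Ddit3 over both (0.0306) kept their calls by limma. Fitting only the 2 groups compared left 1 of 4 members in knockout, where the genes called fell from 1380 to 53 in all. Leaving out each array in turn gave 3 to 4 members in wild type, 2 to 5 in knockout, 5 to 6 over both genotypes, 7 to 8 between sets, and 0 for each genotype contrast and the interaction; the 2 in knockout came without the second-set knockout array of either oxygen level. The rises of Vldlr and Ddit4 were kept in all 8 such fits in each genotype.

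The marginal calls were those of Trib3 in knockout, kept in 3 of 10 alternatives (adjusted p up to 0.923), and of Mthfd2 over both genotypes, kept in 4 of 9 (adjusted p 0.0357 to 0.338). Trib3 in wild type was called once, with the 50th percentile filter (adjusted p = 0.0410). With the mean of all probe sets the set difference of Ddit3 was called (-0.64) and those of Atf4 and Phgdh were not. Over all genes the call counts without the block were 20 (wild type), 12 (knockout) and 99 (both together), and leaving out an array gave 490 to 1975, 121 to 1335 and 2554 to 3315, so the share of genes called is itself loose. The causes were not tested.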
